A study of Mus musculus with 4 samples.

Results

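Retinoic acid (RA) is made from retinol inside cells, and 10 genes that cover its synthesis, uptake, binding, degradation and reception were followed in embryonic mouse ureters in which the secretion of WNT ligands was blocked. Their probes were found by gene name, as every probe named on the array Rdh10, Aldh1a1, Aldh1a2, Aldh1a3, Stra6, Crabp1, Cyp26b1, Rara, Rarb or Rarg. This gave 13 probes for 10 genes, of 39429 probes and 29924 gene names on the array. All 13 probes were well above the background in both channels of 4 of 4 arrays, so no member was lost to the filter on dim probes. Of all gene names, 22461 passed that filter and were tested.

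The ureters came from NMRI wildtype embryos at E12.5 (E, embryonic day), when an inner epithelium (UE) is surrounded by undifferentiated mesenchyme (UM). They were explanted onto membranes at the air-liquid interface and cultured for 18 h in medium without serum, either with 10 µM IWP-2, a small molecule that inhibits Porcupine and so the lipid modification without which WNT proteins are not released, or with the vehicle DMSO as control. Each of the 4 arrays carried total RNA of a pool of treated ureters in one dye and of a pool of control ureters in the other, with the treated RNA in red on arrays 1 and 3 and in green on arrays 2 and 4. The paper's methods give n = 4 for E12.5, but a figure legend of the paper names 2 pools each. The arrays may therefore not stand for 4 independent pools. Explants and pools hold epithelium and mesenchyme together, the sex of the embryos was not determined, and since IWP-2 acts on all WNT secreting cells, the epithelial and mesenchymal response cannot be told apart.

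RA synthesis starts with the reversible oxidation of retinol to retinaldehyde, for which RDH10 is the main embryonic enzyme, and ends with the irreversible oxidation of retinaldehyde to RA by the ALDH1A dehydrogenases, of which ALDH1A2 makes most of the RA of the early embryo. STRA6 is the membrane receptor that takes up retinol from its plasma carrier RBP4, CRABP1 binds RA in the cytoplasm, and the CYP26 enzymes oxidise RA to inactive products. RA acts through the nuclear receptors RARA, RARB and RARG, which bind direct repeats of a short half-site as dimers with RXR proteins. In the urinary tract, RA from the stroma and the mesenchyme is known for its part in branching of the ureteric bud and in the insertion of the ureter into the bladder, and Rarb and the Cyp26 genes are themselves known RA targets in many tissues.

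After IWP-2, 5 of the 10 genes were higher, 3 were lower and 2 did not pass the test. The 4 synthesis genes were all higher, by 1.31- to 1.55-fold. Stra6 fell 2.35-fold and was the member with the largest change. Among the receptors, Rarb and Rarg were lower and Rara was higher. Crabp1 and Cyp26b1 did not pass. These calls are from limma's moderated test over all tested genes at an adjusted p of 0.05, and 33.1% of all tested genes passed in either direction, 15.0% lower and 18.1% higher. A call by itself was thus common on these arrays, and the size of a change tells more about a gene. Of the genes called, 91.1% changed by less than 1.5-fold, the median size of a called change was 0.25 on the log2 scale, and only 165 genes were lower and 39 higher by more than 2-fold on average.

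The probes are shown here for the genes measured by more than 1 probe and for Stra6, since these decide which transcript each value stands for. The array's probes are 60 bases long, of which the first 30 are printed, 5′ to 3′, with the mm9 position that the array files give for the whole probe.
Stra6, chr9:58001701-58001760, plus strand: atgccattagttgtcatgaaagaagttagt
Rara probe a, chr11:98835350-98835409, plus strand: cctgtacatatcctgcgtaccaatccccag
Rara probe b, chr11:98836197-98836256, plus strand: tcctgctgggtttccactgagatctactgg
Rarb probe a, chr14:17263367-17263426, minus strand: gctttctatgttcatatactgtttaccttt
Rarb probe b, chr14:17264648-17264707, minus strand: aattctgaaggacatgaacccttgacccca
Rarb probe c, chr14:17651424-17651483, minus strand: tattgagcctgtttgcacacactcaccacc
Probes a and b of Rarb lie close together and are assigned by the array files to the same transcript, whereas probe c lies far upstream on the minus strand and is assigned to another one. The exon or untranslated region in which a probe lies was not assigned, as no mm9 gene models were used here. The other members have 1 probe each, at chr1:16122062-16122121 (Rdh10), chr19:20717764-20717823 (Aldh1a1), chr9:71143931-71143990 (Aldh1a2), chr7:73535785-73535844 (Aldh1a3), chr9:54616192-54616251 (Crabp1), chr6:84521952-84522011 (Cyp26b1) and chr15:102065371-102065430 (Rarg).

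The treatment was read from Axin2, a textbook target of canonical WNT signalling, which had a log2 ratio of -1.56 ± 0.09 (SD, n = 4). The arrays were of like quality. The median raw intensity was 368 to 711 in the control channels and 385 to 694 in the treated ones, no gene spot was saturated, 3.01 to 3.38% of the spots were flagged as outliers, and the median log2 ratio of all genes was between -0.0025 and 0.0094 on each array. Without array 3, 2177 genes were lower in place of 3360, and the 8 members called over 4 arrays were called in the same direction. Levels below are log2 intensities after background correction and loess, and ratios are log2 of treated over control on the same array. A gene's level was not set against another gene's, because probes differ in how brightly they hybridise.

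Aldh1a2 was the member with the largest rise. Its level was 15.53, 15.71, 15.55 and 15.64 in the control channels of arrays 1 to 4, and 16.04, 16.33, 16.33 and 16.26 in the IWP-2 channels. The lowest treated value lay above the highest control value. Over all tested genes, 22.4% had groups that did not overlap, in either direction, and 43.4% had the same direction on 4 arrays. The log2 ratio was 0.63 ± 0.11 (SD, n = 4; limma, adjusted p = 0.000489), that is 1.55-fold, with a 95% interval of 0.51 to 0.76. It ranked 191 from the highest of the 22461 tested genes, and the ratio stayed between 0.55 and 0.70 under 17 other ways of treating the data.

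Aldh1a3, another of the retinaldehyde dehydrogenases, rose by nearly as much but less evenly. Control levels were 11.57, 11.05, 11.59 and 11.61, and IWP-2 levels were 12.41, 11.75, 12.20 and 11.88. The groups did not overlap, although array 4 gave a ratio of 0.27 while array 1 gave 0.84. The mean ratio was 0.60 ± 0.24 (SD, n = 4; adjusted p = 0.00248), or 1.52-fold.

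Rdh10, which supplies the retinaldehyde, had levels of 12.99, 13.22, 13.22 and 13.14 in the control and of 13.28, 13.82, 13.57 and 13.68 after IWP-2. Here too all treated values were above all control values. The ratio was 0.44 ± 0.15 (SD, n = 4; adjusted p = 0.000611), or 1.36-fold. It averaged 0.32 on the arrays with treated RNA in red and 0.57 on those with treated RNA in green, a dye difference that the fit carries as its own term.

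Aldh1a1, the third of the dehydrogenases, gave 11.44, 11.54, 11.57 and 11.73 in the control and 11.75, 12.24, 11.95 and 11.93 after IWP-2. The lowest treated value was only just above the highest control value. The ratio of 0.40 ± 0.21 (SD, n = 4; adjusted p = 0.0119) corresponds to 1.31-fold and was drawn up by array 2, at 0.70, against 0.19 on array 4. With the authors' own table of fold changes in place of the intensities, Aldh1a1 and Aldh1a3 kept their size, at 0.40 and 0.66, but not the call, with adjusted p of 0.125 and 0.0847. With those values 1833 genes were higher in place of 4069.

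**Figure D1:**
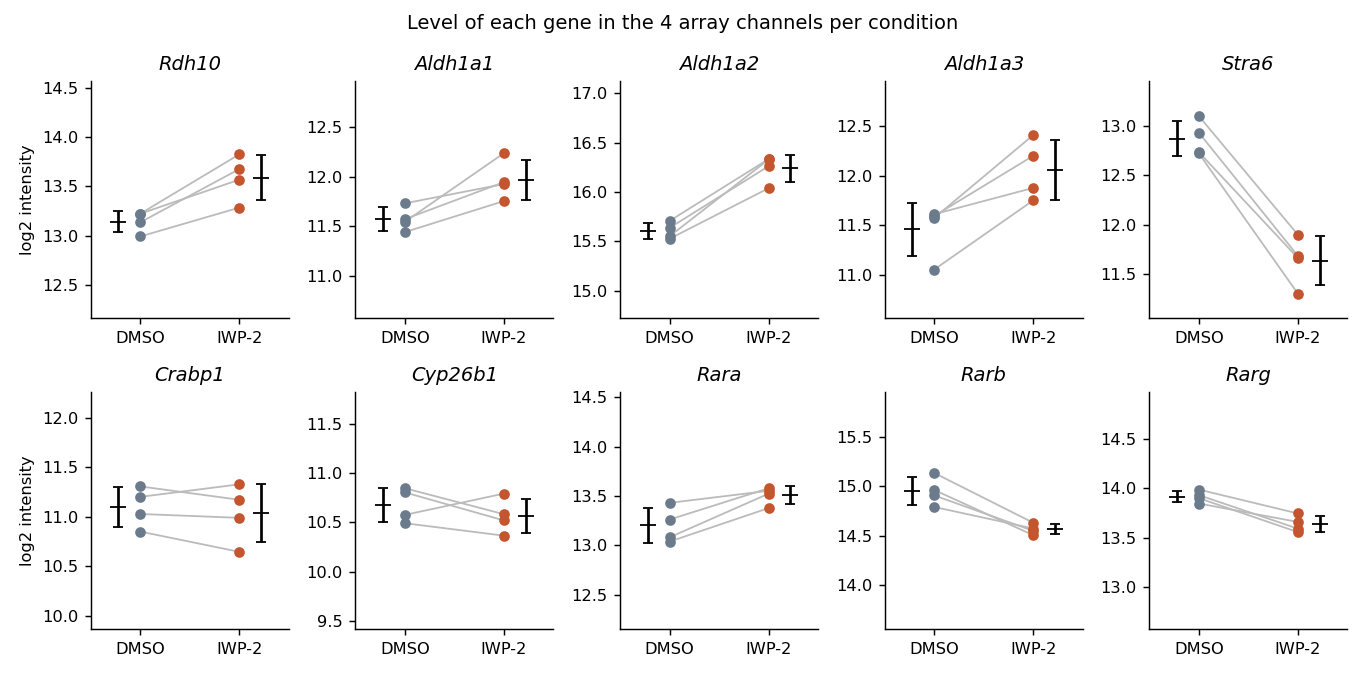
Level of the 10 genes as log2 intensity (y axis, each panel spanning the same range of log2 units) in the DMSO and IWP-2 channels of the 4 arrays, with lines joining the channels of 1 array and bars giving the mean ± SD (n = 4). The lines of Rdh10, Aldh1a1, Aldh1a2, Aldh1a3 and Rara rise and those of Stra6, Rarb and Rarg fall on all 4 arrays, while those of Crabp1 and Cyp26b1 run both ways.

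The uptake receptor gene Stra6 had control levels of 12.74, 12.93, 13.10 and 12.72, and IWP-2 levels of 11.66, 11.68, 11.90 and 11.30. The groups lay far apart, with the brightest treated channel well under the dimmest control channel. Its ratio was -1.07, -1.25, -1.20 and -1.42 on arrays 1 to 4, with a mean of -1.23 ± 0.14 (SD, n = 4; adjusted p = 2.87e-05) and a 95% interval of -1.35 to -1.12. By rank, Stra6 was gene 102 from the lowest of 22461, and 0.454% of the tested genes were as low or lower. It was the member that passed the filter the study used, which asks for a processed intensity above 100 and for more than 2-fold change in every array. At 1.5-fold on each array it was still the only one of the 10.

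Crabp1, the cytoplasmic RA binding protein, showed no change beyond the spread of the arrays. Its levels ran from 10.85 to 11.31 in the control and from 10.65 to 11.33 after IWP-2. The ratio was 0.13, -0.20, -0.04 and -0.13 on arrays 1 to 4, with a mean of -0.06 ± 0.14 (SD, n = 4; adjusted p = 0.332). The 95% interval of -0.17 to 0.05 leaves room for a fall to 0.888-fold and for a rise to 1.03-fold.

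Cyp26b1, which degrades RA, also had overlapping groups, from 10.49 to 10.85 in the control and from 10.37 to 10.79 after IWP-2. Array 1 gave a ratio of 0.22, and arrays 2 to 4 gave -0.26, -0.28 and -0.13. The mean of -0.11 ± 0.23 (SD, n = 4; adjusted p = 0.329) had a 95% interval of -0.31 to 0.08. Without array 1 the ratio was -0.24 and passed the test (adjusted p = 0.0266). Array 1 was the only one above 0, so leaving it out raises the size and cuts the spread. No fall is read from that setting.

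Of the 3 receptor genes, Rarb was lower and was measured by all its probes in the same way. Probe a gave 15.14, 14.79, 14.96 and 14.91 in the control and 14.63, 14.57, 14.51 and 14.55 after IWP-2. The groups did not overlap. The ratio was -0.38 ± 0.13 (SD, n = 4; adjusted p = 0.00144), which is a fall of 1.31-fold. Probe b, on the same transcript, gave -0.37 ± 0.06 (limma over all probes, adjusted p = 0.00123). Probe c, on the other transcript, gave -0.32 ± 0.06 (adjusted p = 0.00199). Probe c was dim, with a mean processed intensity of 24.4 in the control and 15.5 after IWP-2, so that the constant added to all intensities makes its log2 ratio smaller than that of a bright probe with the same change.

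Rarg fell by less but evenly. Its control levels were 13.85, 13.90, 13.99 and 13.93, against 13.66, 13.55, 13.74 and 13.59 after IWP-2. Treated and control channels were apart on all arrays. The ratio was -0.28 ± 0.08 (SD, n = 4; adjusted p = 0.00302), a fall of 1.21-fold.

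Rara went the other way. Probe a had levels of 13.08, 13.43, 13.26 and 13.04 in the control and of 13.52, 13.55, 13.58 and 13.38 after IWP-2. Each array showed a higher treated channel, but the control channel of array 2 was above the treated channel of array 4, so that the groups overlapped. The ratio was 0.30 ± 0.13 (SD, n = 4; adjusted p = 0.00614), or 1.24-fold. For probe b it was 0.34 ± 0.08 (limma over all probes, adjusted p = 0.00240), or 1.26-fold. In the authors' table of fold changes Rara kept a mean of 0.32 with an adjusted p of 0.0698.

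**Figure D2:**
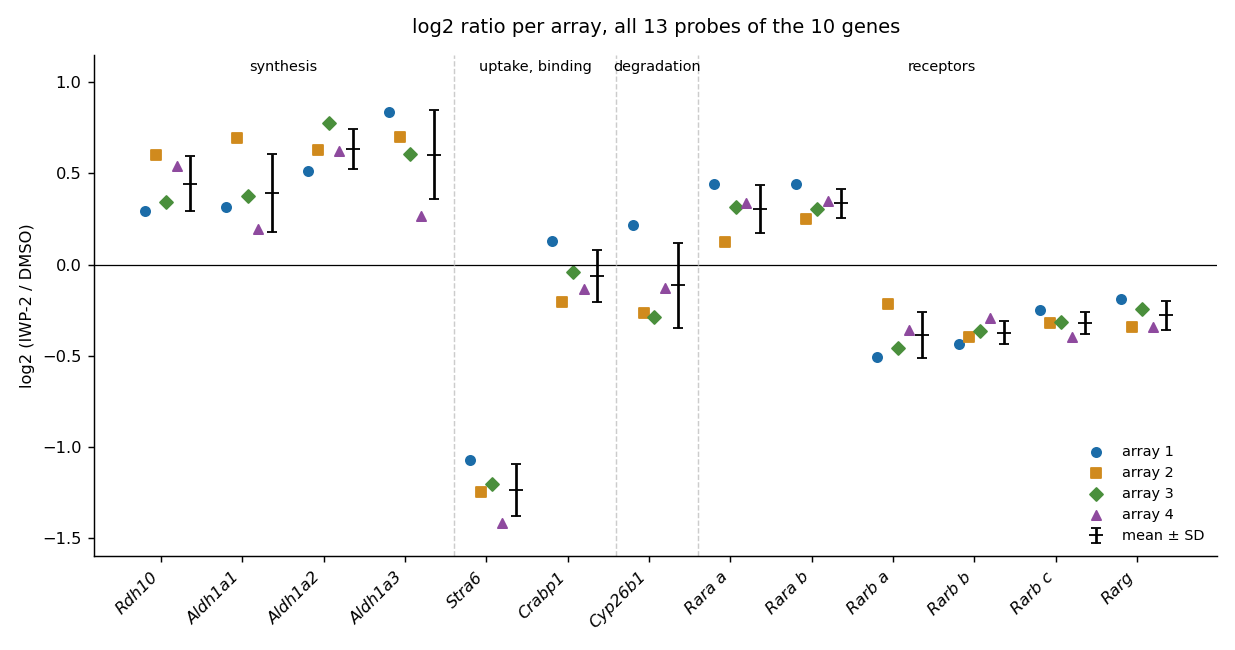
log2 ratio of IWP-2 over DMSO (y axis) for all 13 probes of the 10 genes, with a symbol for each array and the mean ± SD (n = 4) to the right of the symbols. All 4 arrays lie above 0 for the synthesis genes and Rara and below 0 for Stra6, Rarb and Rarg, and the 3 Rarb probes and both Rara probes run alongside each other.

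By role, the median log2 ratio of the 4 synthesis genes was 0.52 (0.41, 0.66, 0.49 and 0.40 on arrays 1 to 4), against a median of 0.0011 over all tested genes. In the order of ranks among all genes from the highest, Aldh1a2 stood at 191, Aldh1a3 at 227, Rdh10 at 529, Aldh1a1 at 751 and Rara at 1395. From the lowest, Stra6 stood at 102, Rarb at 891 and Rarg at 1496. Aldh1a2 and Aldh1a3 differed from each other by less than their spread, and so did Rdh10 and Aldh1a1, and Rarb and Rarg.

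**Figure D3:**
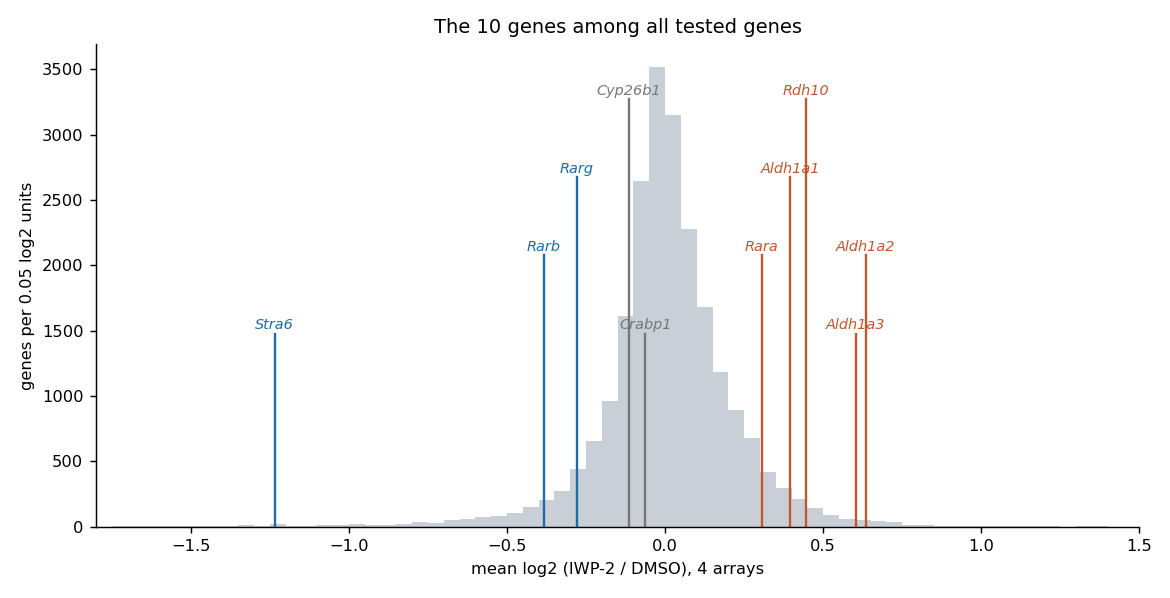
Histogram of the mean log2 ratio of the 22461 tested genes (x axis; y axis, genes per bin), with a vertical line at the mean of each member, orange where the gene was called higher, blue where lower and grey where it did not pass. Stra6 at -1.23 lies far out in the lower tail, and the synthesis genes between 0.40 and 0.63 lie in the upper tail.

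Bulk tissue does not tell fewer cells of a type from less RNA per cell, and markers of several tissues moved with the treatment. For comparison, 18.1% of all tested genes were called higher and 15.0% lower. Of 7 epithelial markers (Epcam, Cdh1, Krt8, Krt18, Krt19, Cldn4 and Cldn7), 7 were higher, by 0.24 to 0.34, although 2 (Epcam and Cdh1) were called with the authors' table and 4 with the channels as separate samples. Their median ratio was 0.22, 0.39, 0.41 and 0.29 on arrays 1 to 4. Their summed level was 17.46 to 17.58 in the control and 17.65 to 17.96 after IWP-2. Of 6 general mesenchymal markers only Pdgfrb was higher (0.80), with a median of 0.11 and a summed level of 18.77 to 18.94 in the control and 18.90 to 19.08 after IWP-2. The UM factors Tbx18, Tshz3 and Sox9 were 3 of 3 lower, with a median of -0.74, a summed level of 15.73 to 15.94 in the control and one of 14.82 to 15.06 after IWP-2. The fall was uneven for Tshz3, from -1.95 on array 2 to -0.17 on array 3. Sox9 ran from -1.05 on array 1 to 0.23 on array 2, where it was higher.

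Against this shift, Aldh1a2 rose by more than the epithelial median on 4 of 4 arrays, by 0.31 ± 0.06 (SD, n = 4). Aldh1a3 did so on 3 of 4 arrays, by 0.28 ± 0.27, Rdh10 on 3 by 0.12 ± 0.14, and Aldh1a1 on 2 by 0.07 ± 0.18. The rises of Aldh1a1 and Rara (-0.02 ± 0.21 from the epithelial median) were thus of the size of the epithelial markers. Rdh10 exceeded the epithelial median by less than the spread of that difference, and Aldh1a3 by about that spread. By in situ hybridisation the paper found Aldh1a2 in the UM, and Aldh1a1 and Aldh1a3 in the UE, of ureters without mesenchymal Ctnnb1. Aldh1a2 rose by more than the median of the general mesenchymal markers on 4 of 4 arrays, by 0.52 ± 0.24. Stra6, Rarb and Rarg lay under the medians of the epithelial, mesenchymal and mesothelial markers on 4 of 4 arrays, but so did Crabp1 and Cyp26b1, which were not called. The part of the tissue composition in these changes was not tested.

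Mesothelial markers need separate mention, because Aldh1a2 is known to be strong in the mesothelium of several organs. Of Wt1, Upk3b, Msln, Lrrn4 and Upk1b, only Upk3b was called higher (0.52 ± 0.63, SD, n = 4), but the count depended on the arrays and settings. It was 4 of 5 without array 1 and with arrays averaged as pairs, 0 without array 2, and Upk3b lost its call in 7 of 16 alternatives. Array 3 stood apart with a median of 0.76, against 0.24, 0.03 and 0.04 on arrays 1, 2 and 4. Upk1b varied most, at 0.38, -0.09, 1.82 and -0.71 on arrays 1 to 4. It is not specific to the mesothelium, as the study uses its protein to mark superficial and intermediate cells of the UE. The summed mesothelial level was 12.90 to 13.25 in the control and 12.89 to 14.04 after IWP-2. Aldh1a2 was also highest on array 3, at 0.78, and its ratio was 0.57 without that array (adjusted p = 0.00126). The part of the mesothelium in its rise was not tested.

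**Figure D4:**
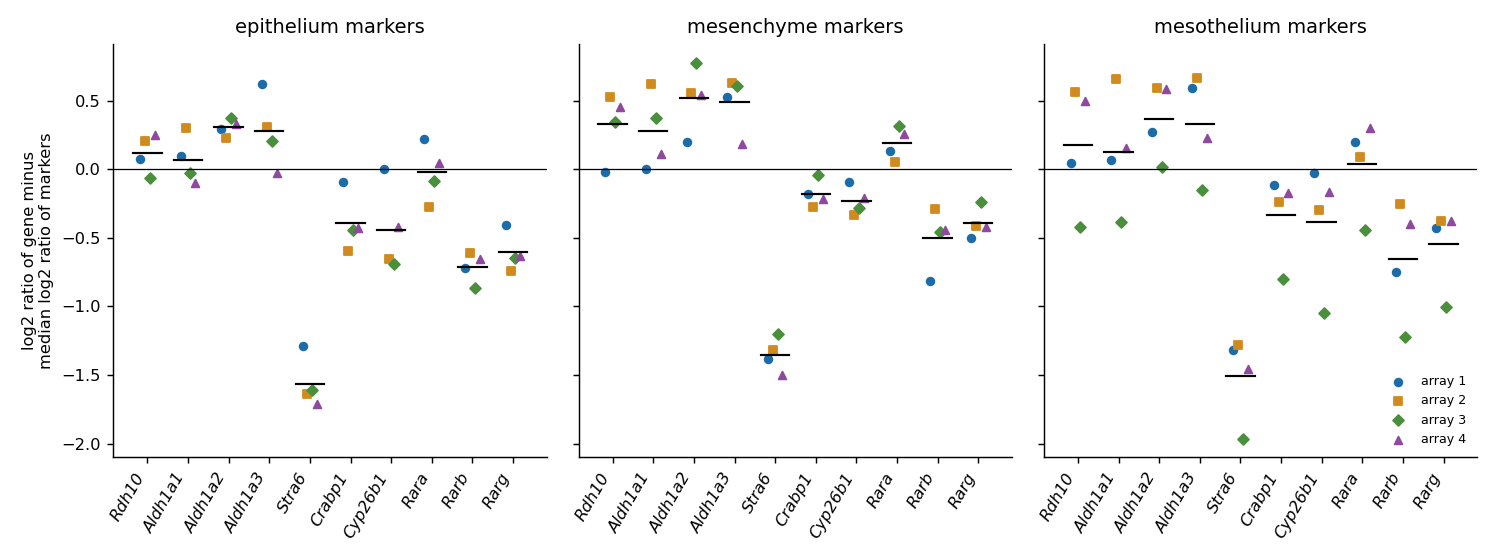
Difference between the log2 ratio of each member and the median log2 ratio of the epithelial, mesenchymal and mesothelial markers (y axis, log2 units) on each of the 4 arrays, with the mean as a bar. Aldh1a2 is above 0 on 4 of 4 arrays in all 3 panels and Stra6, Rarb and Rarg, as well as the uncalled Crabp1 and Cyp26b1, are below 0 on 4 of 4, while array 3 is set apart in the mesothelial panel.

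The other marker lists moved less evenly, and over all tested genes 18.1% were called higher and 15.0% lower. Endothelial markers were higher in 4 of 6 (median 0.19), blood markers in 4 of 6 (0.27), macrophage markers in 3 of 4 (0.31) and nephron progenitor markers in 5 of 6, with 1 lower (0.22). The blood marker Hbb-y was called higher by the fit, but its ratio was below 0 on arrays 2 and 4. The UE factors were higher in 2 of 3 (0.20), renal stroma markers were higher in 1 and lower in 1 of 4 (-0.02), and neural crest markers were higher in 1 and lower in 2 of 5 (-0.09). Their part in the members' changes was not tested.

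The genes around the members were read from lists of retinoid metabolism and response. Of 25 genes of retinol transport, storage and oxidation, 18 were tested, of which 3 were lower and 3 higher, with a median of 0.05. These shares are near those over all tested genes, of which 15.0% were lower and 18.1% higher. The largest change was that of Rbp4, the plasma carrier that hands retinol to STRA6. Its ratio was -0.77, -1.17, -0.72 and -1.26 on arrays 1 to 4 (mean -0.98 ± 0.27, SD, n = 4; adjusted p = 3.35e-05), at a low mean processed intensity of 147 in the control and 65.8 after IWP-2. The dehydrogenases Rdh5 (-0.15) and Dhrs4 (-0.18) were slightly lower. Dhrs3, which turns retinaldehyde back into retinol and works together with RDH10, was higher by 0.26 ± 0.05 (adjusted p = 0.00455), and so were Lrat (0.17), which esterifies retinol for storage, and Rdh14 (0.14). The call was lost in 10 of 17 alternatives for Rdh5, 9 of 17 for Rdh14, 6 of 16 for Lrat and 5 of 17 for Dhrs4. By mean, Dhrs3 rose less than Aldh1a3 (0.60) and Aldh1a1 (0.40). Only on array 4 was the ratio of Dhrs3 (0.27) about that of Aldh1a3 (0.27) and above that of Aldh1a1 (0.19).

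Among the genes of RA binding and degradation, Cyp26a1 was lower (-0.73 ± 0.24; adjusted p = 0.00204), while Crabp2 (0.07 ± 0.15) and Fabp5 (-0.06 ± 0.06), which carry RA to the nucleus, did not pass and Cyp26c1 was not tested. The Cyp26a1 probe was dim, at 29.2 in the control and 9.82 after IWP-2 in processed intensity, and its ratio depended on how the background was handled. It was -1.58 with the processed signals (adjusted p = 0.00707), and -1.06 without the call in the authors' table (adjusted p = 0.0909).

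Of the RXR partners of the receptors, Rxra (0.06 ± 0.10) and Rxrb (0.01 ± 0.04) did not pass (SD, n = 4). The 2 probes of Rxrg disagreed. The brighter one, which stood for the gene, gave -0.12 ± 0.19 and did not pass (adjusted p = 0.0798). The dimmer one, with a mean processed intensity of 274 in the control and 61.3 after IWP-2, gave -1.57, -1.92, -2.04 and -1.93 on arrays 1 to 4 (mean -1.86 ± 0.20; limma over all probes, adjusted p = 1.95e-05), lower on every array and by more than any probe of the 10 members. With both probes averaged, Rxrg was lower by 0.99 (adjusted p = 8.77e-05), and which transcripts the probes measure was not determined. Of the coregulators, the coactivators Ncoa3 (0.28 ± 0.11; adjusted p = 0.00649) and Ncoa1 (0.16 ± 0.11; adjusted p = 0.0440) were higher by their brightest probes. Their dimmer or equally bright probes did not pass in limma over all probes. These gave 0.11 (adjusted p = 0.124) and 0.01 (adjusted p = 0.937) for Ncoa1, and 0.20 (adjusted p = 0.0534) for Ncoa3. Ncoa1 lost its call in 10 of 17 alternatives. Ncoa2 (0.05), Nrip1 (-0.13) and the corepressor Ncor1 (0.06) did not pass.

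Of 17 genes known to respond to RA in 1 tissue or another, 15 were tested, with 4 lower, 7 higher and a median of 0.04. Over all tested genes 15.0% were lower and 18.1% higher. The 4 lower ones were the transglutaminases Tgm2 (-1.38 ± 0.51; adjusted p = 0.000361) and Tgm5 (-1.22 ± 0.18; adjusted p = 5.17e-05), Rarres2, which encodes the secreted chemerin (-0.57 ± 0.25; adjusted p = 0.000795), and Rarres1 (-0.34 ± 0.10; adjusted p = 0.00367). The 7 higher ones were transcription factor genes, Meis2 (0.38), Hoxb4 (0.33), Meis1 (0.33), Nr2f2 (0.28), Nr2f1 (0.25) and Hoxd4 (0.21), and the receptor tyrosine kinase gene Ret (0.28). Ret is a known marker of the tip of the ureteric bud, and its rise was of the size of the epithelial markers. Ecm1, a gene used as a readout of RA signalling in the ureter, did not pass (0.04 ± 0.16; adjusted p = 0.527). The genes of this list therefore did not move in 1 direction, and the largest changes in it were falls. The list leaves out Stra6 (-1.23), Rarb (-0.38) and Cyp26a1 (-0.73), which were lower, and Cyp26b1 and Crabp2, which did not pass. The paper also reads Rarb and Stra6 as RA targets and counts Cyp26a1, Cyp26b1 and Crabp2 among RA responsive genes.

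**Figure D5:**
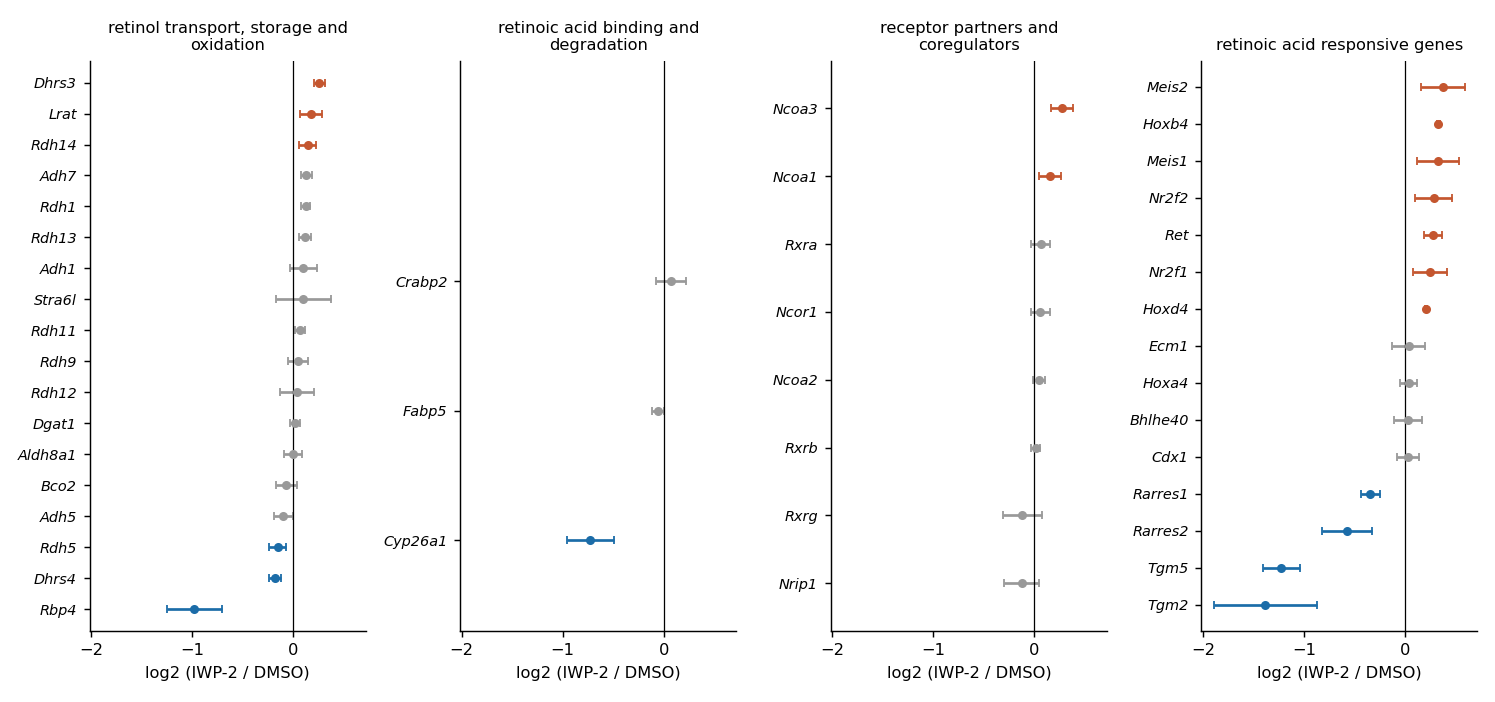
Mean log2 ratio ± SD (x axis, n = 4 arrays) of the tested genes, each by its brightest probe, of 4 lists of retinoid metabolism and response, orange where called higher, blue where lower and grey where not called. Most genes lie near 0, and Rbp4, Cyp26a1, Tgm5 and Tgm2 lie furthest to the left.

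RefSeq promoter windows, from 250 bases before to 50 bases after a start site in GRCm38.p6, were held for 8 of the 10 members in 16 windows, and not for Rdh10 and Aldh1a3. Both strands were searched for a direct repeat of the RAR half-site (AGGTCA, with G also taken for the opening A, and T for the G before TCA) with a spacer of 5 bases (DR5), 2 bases (DR2) or 1 base (DR1). A DR5 was found in 1 window of 1 member, Rarb, where it starts 53 bases before the start site, and DR1 and DR2 were found in 0 members. Over all 32851 windows, 0.0974% held a DR5, 0.268% a DR2 and 0.222% a DR1. The window of Rarb is printed with the repeat in capitals, beside that of Cyp26a1, the RA degrading gene named above, which also holds one, in the opposite orientation. Both are the 250 bases before the start site.
Rarb, GRCm38.p6 chr14:16575477-16575726, minus strand: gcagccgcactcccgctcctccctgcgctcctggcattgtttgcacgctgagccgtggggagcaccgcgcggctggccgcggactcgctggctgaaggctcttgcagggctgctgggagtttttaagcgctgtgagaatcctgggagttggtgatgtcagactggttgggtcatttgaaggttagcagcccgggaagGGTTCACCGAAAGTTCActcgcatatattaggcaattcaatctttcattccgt
Cyp26a1, GRCm38.p6 chr19:37697558-37697807, plus strand: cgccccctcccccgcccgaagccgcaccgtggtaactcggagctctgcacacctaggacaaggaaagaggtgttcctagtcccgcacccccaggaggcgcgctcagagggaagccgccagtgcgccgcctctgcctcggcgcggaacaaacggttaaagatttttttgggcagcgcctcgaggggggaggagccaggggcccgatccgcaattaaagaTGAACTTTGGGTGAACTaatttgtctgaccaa
Both genes were lower after IWP-2. Of the 10 tested genes with a DR5 in a window, looked up afterwards, 4 were lower, 2 higher and 4 not past the test. Over all tested genes 15.0% were lower and 18.1% higher. A match of letters is not a bound site, and binding was not measured here.

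The same windows were searched for CTTTGA followed by A or T, the core of sites for TCF/LEF factors, the DNA binding partners of β-catenin in WNT signalling. They occurred in 2 of the 8 members with a window, Aldh1a1 and Stra6, and in 9.88% of all genes with one, or in 2 of the 16 member windows and 8.65% of all windows. The Stra6 window is shown since Stra6 fell most, with the match on its minus strand in capitals.
Stra6, GRCm38.p6 chr9:58129099-58129348, plus strand: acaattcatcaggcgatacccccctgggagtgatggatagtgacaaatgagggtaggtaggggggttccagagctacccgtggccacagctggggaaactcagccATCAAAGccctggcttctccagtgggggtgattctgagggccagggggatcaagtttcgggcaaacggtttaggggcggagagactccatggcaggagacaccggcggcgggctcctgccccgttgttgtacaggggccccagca
Stra6 has 4 windows, of which only the one printed held such a match, and Aldh1a1, with 2 matches in 1 of its windows, was higher. A member with the match thus fell and a member with it rose.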

How the data were processed

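Pools of E12.5 mouse ureters treated with IWP-2 or DMSO were hybridised to 4 two-colour Agilent arrays. Per the file headers the deposited scanner files hold raw and processed intensity values and a log10 ratio of red over green per spot from Agilent Feature Extraction 10.7.3.1, and the deposited series table holds the authors' signed fold per probe, its direction set against the scanner values. From the raw intensities, normexp (offset 50) and loess (span 0.3) in limma 3.58.1 (R 4.3.3) gave log2 ratios. Outlier and control spots were left out, 4 spots per probe were averaged, and the brightest probe stood for a gene. Probes had to be well above background on every array in at least 1 condition. A linear model with a dye term, moderated t statistics and Benjamini-Hochberg adjustment over all genes was tested on simulated data. The number of arrays limits the precision, and whether pools are separate litters is not stated, so p-values may measure technical spread. Members, lists and tests were chosen with earlier results of these data known. All members are named, and of the pathway lists the called genes and every partner, binding and degradation gene. Some genes of these lists are not reported here.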

Additional observations from a re-analysis of the deposited data

Results flagged for a closer look

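A single array stood away from the other 3 in 6 of the 87 sets of 4 ratios examined (13 member probes, the genes of the pathway lists, the epithelial and mesothelial markers and the list medians), where chance gives about 5%. None was a probe of a member. On array 3, Stra6l gave 0.50 (others -0.09 to 0.01), Rdh9 0.19 (-0.01 to 0.01), Rdh13 0.21 (0.08 to 0.10) and Ncoa3 0.12 (0.32 to 0.35), and the median of the list of retinol transport, storage and oxidation was 0.080 (0.015 to 0.019). On array 2 the median of the endothelial markers was 0.15 (0.18 to 0.19). All values are log2 ratios of IWP-2 over DMSO. Stra6l and Rdh9 were dim, with mean processed intensities of 37.4 and 59.6 in the control, and array 3 is also the array on which the mesothelial markers were highest.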

How the results depend on the processing

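The members were recomputed under 17 alternatives, of which 166 of the 170 values kept their direction where called and their side of the threshold, and none of the called ones reversed. The authors' table of fold changes gave 2 members higher in place of 5, without Aldh1a1, Aldh1a3 and Rara, and 2050 genes lower and 1833 higher over all genes. Treating the 8 channels as separate samples, with no replicate block, kept 3 members lower and 5 higher and gave 2068 genes lower and 2039 higher. Leaving out 1 array at a time gave 2177 to 2811 genes lower and 2879 to 3348 higher, 3 to 4 members lower and 5 to 5 higher, the added member being Cyp26b1 without array 1. If arrays 1 and 2 and arrays 3 and 4 were dye swaps of the same pools, n is 2, and with such pairs averaged 3 members were lower and 5 higher. The study filter named Stra6 in each setting tried. Of the 20 called genes of the pathway lists, 7 kept their call in all alternatives (Rbp4, Dhrs3, Tgm5, Tgm2, Hoxb4, Meis2 and Rarres2). Slide and scan could not be set as a block, since all 4 arrays lie on 1 slide and in 1 scan.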

Other observations

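After the match in Rarb was seen, the other genes with a DR5 in a RefSeq window were looked up. They were 31 genes, of which 10 were tested, with 4 lower, 2 higher and 4 not past the test, and a median log2 ratio of 0.06. The lower ones were Prokr2 (-1.29 ± 0.22), Cyp26a1 (-0.73 ± 0.24), Rarb (-0.38 ± 0.13) and Syndig1 (-0.31 ± 0.21), and the higher ones were Cfap45 (0.34 ± 0.27) and the embryonic globin gene Hbb-y (0.28 ± 0.46), each as mean ± SD over 4 arrays. The arrays disagreed on Hbb-y, which was 0.61 and 0.73 with treated RNA in red and -0.10 and -0.14 with it in green. Over all tested genes 15.0% were lower and 18.1% higher.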
